A study of Mus musculus with 23 samples.

Results

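DNA methylation was compared between the epiblast and the extra-embryonic ectoderm (ExE) of single mouse embryos at embryonic day (E) 7.5, to describe the size, direction and genomic place of the differences. The comparison used all 8 E7.5 libraries of a series of 23, namely 4 epiblast and 4 ExE libraries, 2 of each tissue from each reciprocal cross. The members were the windows on autosomes 1 to 19 with a value in all 8 libraries, 383556 of the 384346 autosomal windows and of 402812 windows in all. Embryos were wild type and came from natural timed matings of C57BL6/Babr (B6) with CAST/Ei (CAST) mice, and are written B6/CAST or CAST/B6 with the mother's strain first. The 2 tissues of each embryo were dissected apart by hand, and each library was made from 1 embryo by post-bisulphite adaptor tagging (PBAT). In each cross, the study's sample list gives replicate 1 as female and replicate 2 as male, and lists more reads for each ExE library than for any epiblast library, so that depth and tissue cannot be told apart. Every sample was therefore a dissected tissue and not a sorted cell type, and a value is an average over its cells, both alleles and the CpGs of the window.

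Cytosine methylation at CpG dinucleotides is placed by the de novo enzymes DNMT3A and DNMT3B and is copied after replication by DNMT1. It is largely erased in the preimplantation embryo and is laid down again around implantation. The epiblast forms the embryo proper, whereas the ExE is trophoblast that contributes to the placenta, a tissue known for lower methylation over much of the genome. CpG islands, short stretches rich in CpGs at many promoters, are usually unmethylated in both lineages.

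Each window was drawn by the authors to hold 100 CpGs, so that its length is roughly the inverse of its CpG density. In the reference, a window held a median of 51 CpG dinucleotides, that is about 100 CpG cytosines over both strands, and a window's median length was 5216 bp. The number of dinucleotides was not constant, and 2625 windows held over 100. Over its whole length, the window with the largest excess in the epiblast held 100 CpG dinucleotides in 22997 bp. The window with the largest excess in ExE held 46 in 1573 bp. A stretch of the GRCm38 reference from each of these windows is given below. Each is written 5′ to 3′ on the plus strand with every CpG in capitals. The first is the middle 300 bases of the window with the largest excess in the epiblast, and it held 2 CpGs. The other is the 300 bases richest in CpGs of the window with the largest excess in ExE, and it held 18. The stretches were picked by different rules, so their counts do not compare the windows.
Epiblast-higher 1, chr5:11806243-11806542: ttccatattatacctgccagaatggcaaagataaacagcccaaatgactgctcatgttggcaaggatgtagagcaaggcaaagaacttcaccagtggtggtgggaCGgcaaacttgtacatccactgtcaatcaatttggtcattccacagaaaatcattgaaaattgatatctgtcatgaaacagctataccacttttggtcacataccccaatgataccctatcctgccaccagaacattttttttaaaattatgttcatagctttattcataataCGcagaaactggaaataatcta
ExE-higher 1, chr13:63901810-63902109: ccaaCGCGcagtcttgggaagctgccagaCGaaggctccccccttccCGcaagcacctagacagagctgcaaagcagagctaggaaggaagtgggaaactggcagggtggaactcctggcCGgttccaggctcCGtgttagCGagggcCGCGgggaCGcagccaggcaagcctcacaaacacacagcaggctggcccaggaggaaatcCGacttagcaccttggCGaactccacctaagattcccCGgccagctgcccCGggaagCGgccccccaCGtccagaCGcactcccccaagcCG

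Methylation averaged over autosomal windows was 74.4% and 71.7% in the B6/CAST epiblasts and 74.0% and 75.6% in the CAST/B6 epiblasts. In ExE it was 58.9% and 56.3% in B6/CAST and 56.05% and 59.2% in CAST/B6. Every epiblast lay above every ExE, and the tissues differed by 16.3 percentage points (epiblast 73.9% ± 1.65, ExE 57.6% ± 1.66, SD, n = 4 each; exact permutation test, two-sided, p = 0.0286, the smallest that 4 against 4 allows). The difference was 15.5 points within B6/CAST and 17.2 points within CAST/B6. Within a tissue, libraries correlated across windows at 0.922 to 0.957, and between tissues at 0.799 to 0.885.

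The whole distribution was displaced in ExE, apart from a low peak that both tissues shared. Windows under 20% made up 6.55 to 6.67% of windows in the epiblast libraries and 6.52 to 6.67% in the ExE libraries. Windows above 80%, in contrast, were 41.9 to 61.8% in the epiblast and 5.95 to 11.1% in ExE. Of the 208605 windows with an epiblast mean above 80%, 86.4% lay between 20 and 80% in ExE, 13.6% stayed above 80%, and none was under 20% in ExE. Of the 25258 windows under 20% in the epiblast, 91.6% were also under 20% in ExE, and the other 2128 lay between 20 and 80%.

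**Figure D1:**
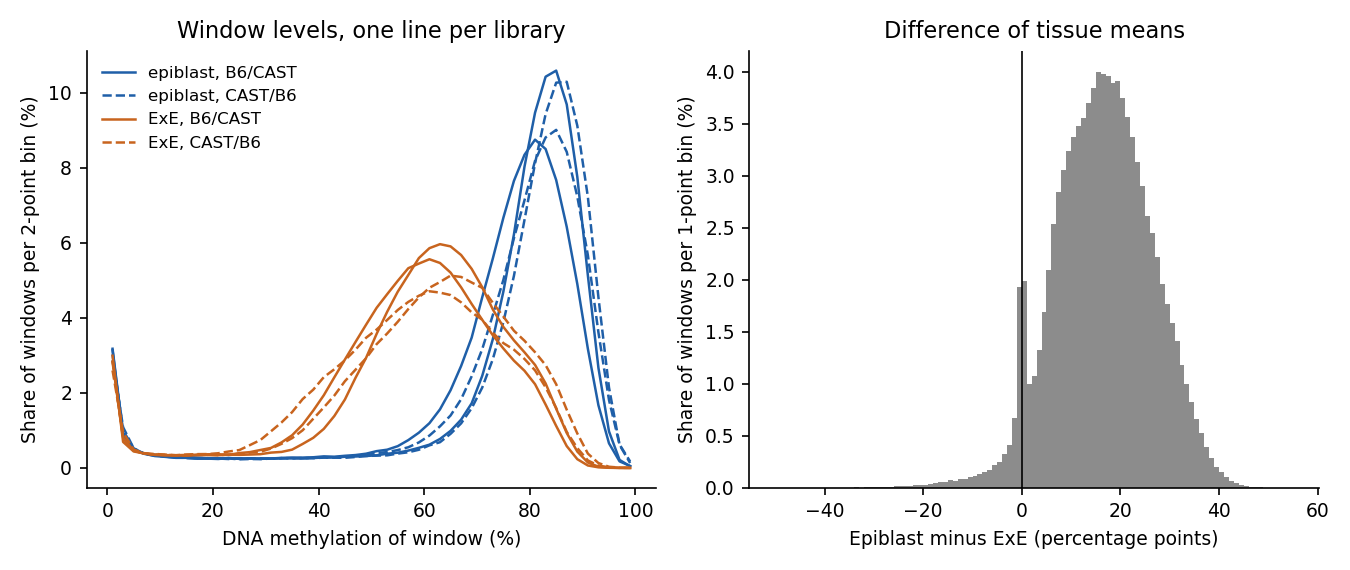
Left, share of autosomal windows (%) by DNA methylation in bins of 2 percentage points, 1 line per library, coloured by tissue and dashed for CAST/B6. Right, epiblast minus ExE in percentage points for each window (mean of 4 libraries in each tissue); the middle value is 16.5 points, with a second, narrow peak near 0 made of windows that are low in both tissues.

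The differences ranged from -46.3 to 52.4 points with a median of 16.5, and 90% of windows had a difference above 3.60 points. In a limma fit with cross as a covariate, 322773 windows passed (84.2% of those tested), of which 317793 were higher in the epiblast (82.9%) and 4980 higher in ExE (1.30%), at a Benjamini-Hochberg adjusted p below 0.05. Subtracting each library's own mean, which shifts every difference by 16.3 points, left 72868 windows above that shift (18.998%) and 79853 below it (20.8%). The split between directions thus describes absolute levels and not departures from the genome-wide shift. With a minimum difference of 20 points as well, 139005 windows were higher in the epiblast (36.2%) and 674 in ExE (0.176%). All 4 epiblasts exceeded all 4 ExE libraries in 282891 windows (73.8%), and the reverse held in 5177 (1.35%). No window passed for an interaction of tissue with cross in limma (0.00%). At an unadjusted p below 0.05 there were 18530 (4.83%), and limma with a trended, robust variance called 1 window.

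The size of the difference followed CpG density. In the shortest decile of windows (the ranked lengths cut into 10 equal groups), up to 2268 bp and with a median of 41.0 CpGs per kb, the epiblast was at 30.1% ± 0.506 and ExE at 27.5% ± 0.677 (SD, n = 4 each). In the longest decile, from 11590 bp and with 4.18 CpGs per kb, the epiblast was at 77.4% ± 2.37 and ExE at 48.6% ± 3.39. The difference grew at each step from 2.57 to 28.8 points, and the ExE level fell from 91.4% to 62.8% of the epiblast level. The 2 tissues differed in shape as well. The epiblast rose to 81.0% in the seventh decile and then declined to 77.4%, whereas ExE was highest in the fourth decile, at 65.1%, and then declined to 48.6%. In the longest decile the 4 ExE libraries spanned 44.5 to 52.7% and the 4 epiblast libraries 74.3 to 79.4%.

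As a value per library, the mean of the shortest decile minus the mean of all other windows was -49.3, -47.0, -48.6 and -49.98 points in the epiblasts and -34.9, -33.0, -31.6 and -34.3 in ExE. The contrast between dense and sparse windows was therefore smaller in ExE without overlap of libraries, an epiblast minus ExE difference of -15.3 points (exact permutation test, two-sided, p = 0.0286, n = 4 each). It was -14.2 points within B6/CAST and -16.4 within CAST/B6. In the shortest decile 24.2% of windows were called higher in the epiblast and 8.57% higher in ExE, and in the longest decile 99.04% and 0.0104%. Windows shorter than 1 kb, 16601 in number, averaged 5.48% in the epiblast and 5.72% in ExE.

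**Figure D2:**
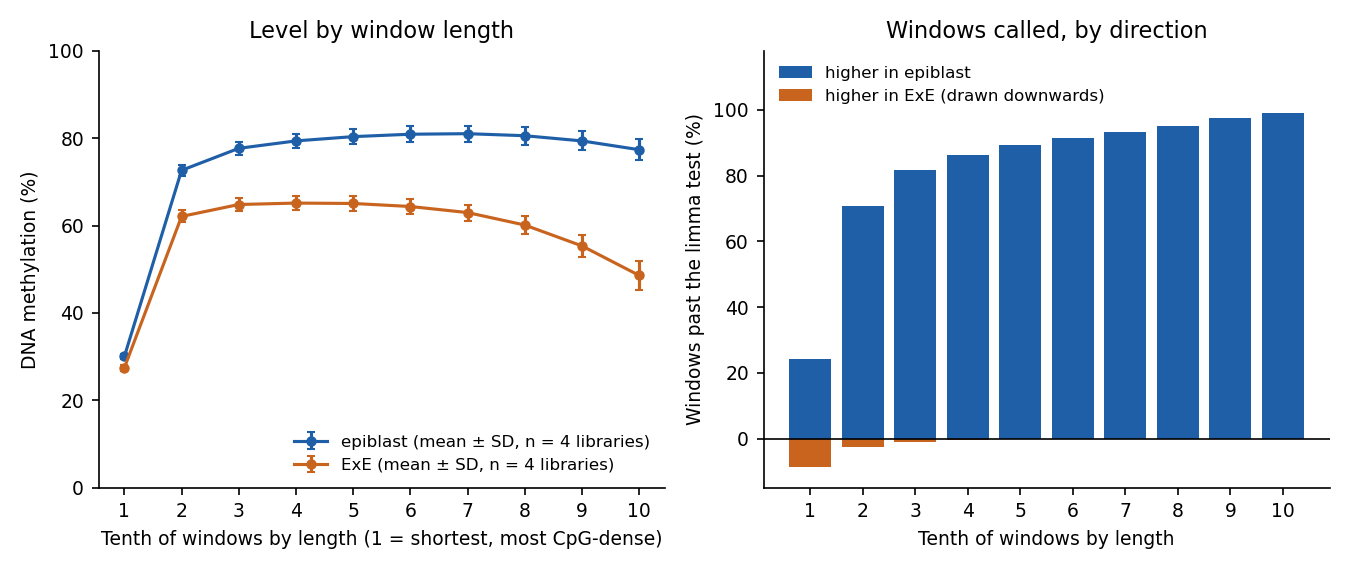
Left, DNA methylation (%) by length decile of windows from the shortest to the longest, mean ± SD of 4 libraries in each tissue; the curves start at 30.1% and 27.5% in the first decile and part to 77.4% and 48.6% in the last. Right, percentage of windows past the limma test in each decile, upwards for windows higher in the epiblast and downwards for windows higher in ExE, which lie mainly in the first decile.

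Windows that hold a transcription start were less methylated in both tissues, by a smaller margin in ExE with means and a larger one with medians. There were 72265 such windows, at 60.8% in the epiblast and 48.7% in ExE, against 77.0% and 59.7% for the remaining windows. The mean over start windows minus the mean over the rest was -16.4, -15.6, -16.2 and -16.6 points in the epiblasts and -11.5, -10.8, -10.4 and -11.4 in ExE, a difference of -5.20 points (exact permutation test, two-sided, p = 0.0286, n = 4 each). The direction depended on the average. With medians over windows, start windows were at 76.7% and 55.3% and the rest at 81.4% and 61.5%. The same difference was then 1.59 points, also with p = 0.0286 in the exact permutation test. Start windows were shorter (median 4227 against 5415 bp). Among windows of the shortest decile, those with a start were at 16.2% in the epiblast and 15.0% in ExE, and those without at 41.9% and 38.2%.

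On average, gene bodies were more methylated in ExE than the space between genes. Without starts, windows centred in a gene were at 76.9% and windows between genes at 77.1% in the epiblast, and at 62.1% and 56.9% in ExE. Gene minus intergenic was -0.589, 0.406, 0.164 and -0.484 points in the epiblasts and 4.29, 5.13, 6.32 and 5.25 in ExE. The epiblast values lay on both sides of 0 and the ExE values were all above them, a difference of -5.37 points (exact permutation test, two-sided, p = 0.0286, n = 4 each). Windows in genes were shorter than those between genes (median 4779 against 6332 bp). At like length, in the fifth decile of windows, gene windows were at 82.1% and 67.6% and intergenic windows at 79.1% and 62.1%, and in the longest decile at 78.1% and 49.9% against 77.2% and 47.9%. In the shortest decile gene windows were instead the lower in both tissues, at 39.3% and 36.1% against 49.0% and 43.8%.

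All 19 autosomes showed the difference, from 14.3 points on chromosome 11 (70.4% against 56.2%) to 17.96 on chromosome 3 (75.2% against 57.3%). Across the 19 chromosomes the difference had a Spearman correlation of 0.898 with median window length and of -0.807 with the number of protein-coding genes per Mb, 2 measures that are not independent of each other. In 1 Mb bins with at least 20 windows the difference was above 0 in all 2409, and in all 2409 the 4 epiblast means exceeded the 4 ExE means. It ranged from 3.54 to 33.2 points with a median of 17.2. The 208 bins without a protein-coding gene had a median difference of 28.4 points, and the 801 bins with 10 or more genes one of 13.1.

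The 5 bins with the largest differences were CpG-poor and held few genes. The bin chr15:48000001-49000000, which lies in the long gene Csmd3, was at 73.5% in the epiblast (libraries 69.6 to 76.2%) and 40.3% in ExE (36.2 to 45.4%), with a median window of 14275 bp. Bins chr11:39000001-40000000, chr12:47000001-48000000 and chr11:38000001-39000000 held no protein-coding gene and differed by 32.7, 32.6 and 32.4 points. The bin chr9:10000001-11000000, in Cntn5, a neuronal adhesion gene, differed by 32.5.

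Of the 5 bins with the smallest differences, 3 held Hox clusters. They were chr6:52000001-53000000 with the Hoxa genes (53.5% and 47.4%), chr15:102000001-103000000 with Hoxc genes (49.7% and 43.6%) and chr11:96000001-97000000 with the Hoxb genes (52.2% and 45.5%). The bin chr19:45000001-46000000, with the homeobox genes Tlx1 and Lbx1, differed by 6.56 points. The lowest of all was chr13:120000001-121000000, at 49.6% and 46.1% over 45 windows, which holds Tcstv3 and several predicted genes.

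**Figure D3:**
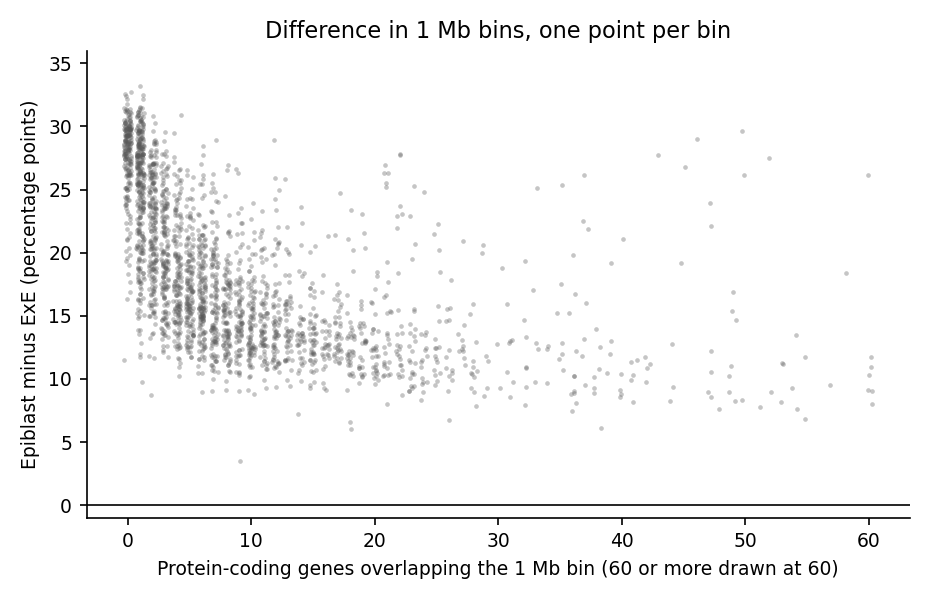
Epiblast minus ExE in percentage points for each of 2409 bins of 1 Mb, against the number of protein-coding genes that overlap the bin (horizontal jitter added; 60 or more drawn at 60). All points lie above 0, with the largest differences in bins that hold no or few genes.

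Neighbouring windows called in the same direction made 34833 runs in the epiblast direction, of which 7351 were single windows. Where more windows are called, runs are longer by construction, and 82.9% of windows were called in the epiblast direction and 1.30% in the ExE direction, so the runs are given as a description. The longest run in the epiblast direction held 277 windows over 2228 kb around Sorcs3 and Sorcs1, genes for neuronal sorting receptors, at 79.1% and 51.9%. The longest in bases spanned 3157 kb on chromosome 5 around G6pd2 and Arap2. In the ExE direction there were 2929 runs, of which 2075 were single windows, and the longest by windows held 19. The 10 longest of these included 4 in Hox clusters, between Hoxb8 and Hoxb4 (6.82% in the epiblast, 18.4% in ExE), Hoxb4 and Hoxb2 (7.94% and 25.2%), Hoxc13 and Hoxc11 (6.92% and 19.7%) and at Hoxd3 and Hoxd4 (8.16% and 26.5%). The others lay at Nr2e1 with Ostm1, Hand2, Nkx2-1, Lhx5, Skor1 and Pax3, some of them beside noncoding or predicted genes. Of those named, all but Ostm1 code for transcription regulators of development, and no test of such a set was run. At Pax3 the run held 11 windows over 24.6 kb, at 9.39% and 26.4%.

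The 4980 windows higher in ExE were CpG-dense and low in the epiblast. Their median length was 1717 bp against 5216 bp for all windows, 66.0% belonged to the shortest decile against 10.0% of all, and 32.1% held a transcription start against 18.8%. Their median was 9.08% in the epiblast and 24.4% in ExE. The epiblast was under 20% in 73.3% of them against 6.59% of all windows, and above 80% in none against 54.4%. Choosing windows that are higher in ExE by itself favours low epiblast values, so these shares are a description. Of the windows higher in the epiblast, 2.92% belonged to the shortest decile and 14.9% held a start.

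The E6.5 libraries of the same crosses, made from pools of embryos, gave a second set of samples for the same places. Windows of the E6.5 table have other borders, so each E7.5 window was given the value of the E6.5 window that covers its midpoint, and 296863 had one in all 6 epiblast and 4 ExE wild-type libraries. The number of 1 of the 6 epiblast columns matches no sample title, and the column was used as an unnumbered replicate of its group. Of the windows higher in ExE at E7.5, 3745 were measured, and 3027 (80.8%) were also higher in ExE at E6.5, against 5.55% of all. Without the unmatched column, a setting added after the data were seen, 3000 (80.1%) were, against 5.64%. Among those higher in ExE by at least 20 points, 484 of 510 (94.9%) were, and all 4 E6.5 ExE libraries exceeded all 6 epiblast libraries in 32.9%, against 17.6% of all windows higher in ExE at E7.5 and 0.296% of all windows. Of the windows higher in the epiblast, 98.2% were higher in the epiblast at E6.5, against 94.5% of all.

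Windows with the largest excess in the epiblast, among those with no overlap of libraries and the same direction in both crosses, were long, and 2 of the 4 described here overlapped a gene. The largest, at chr5:11794895-11817891 (22997 bp, between genes, 19.6 kb from the predicted gene Gm8926), was at 78.0%, 100%, 90% and 94.1% in the epiblasts and 35.5%, 37.8%, 37.4% and 41.7% in ExE. The difference was 52.4 points (SE 4.32, limma adjusted p = 7.9e-05). The window chr4:113842477-113855777 overlaps coding exons and introns of Skint5, of a family of skin and thymus immune genes, at 77.1% ± 7.34 and 26.3% ± 3.88 (SD, n = 4 each).

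The window chr1:146802540-146811742 holds a start of the noncoding gene A230059L01Rik within Brinp3, and its ExE libraries ranged from 16.4% to 59.0%. The window chr10:104686818-104698712 lies 489 kb from Tmtc2 and was at 84.4% ± 4.06 and 34.6% ± 12.8. No allele value was given for the window on chromosome 5 or that in Skint5, and none of these 4 windows had a value in all 10 E6.5 libraries. The number of reads behind these values is unknown.

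Windows with the largest excess in ExE were short and lay in or near genes. The window chr13:63901404-63902976 (1573 bp), between genes and 1.10 kb from Ercc6l2, a DNA repair helicase, was at 9.48%, 5.74%, 8.82% and 13.7% in the epiblasts and 46.5%, 65.5%, 56.96% and 54.1% in ExE. The tissues did not overlap, and epiblast minus ExE was -46.3 points (SE 3.98, limma adjusted p = 8.1e-05). In ExE the maternal allele was at 58.6% and the paternal allele at 58.5%, and at E6.5 the place was at 19.5% in the epiblast and 56.3% in ExE.

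The other 2 described here overlap the transcribed parts of homeobox genes. The window chr13:71957511-71958649, over coding and untranslated exon sequence of Irx1, was at 6.86% ± 2.55 in the epiblast and 49.7% ± 12.3 in ExE. The window chr5:28170049-28172608, over the same kinds of sequence of En2, was at 13.6% ± 5.44 and 56.2% ± 7.04. In the windows near Ercc6l2 and at En2 both alleles had values in all libraries and both were higher in ExE. In these 2 windows the E6.5 libraries differed in the same direction, with epiblast minus ExE at -36.8 and -23.6 points.

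**Figure D4:**
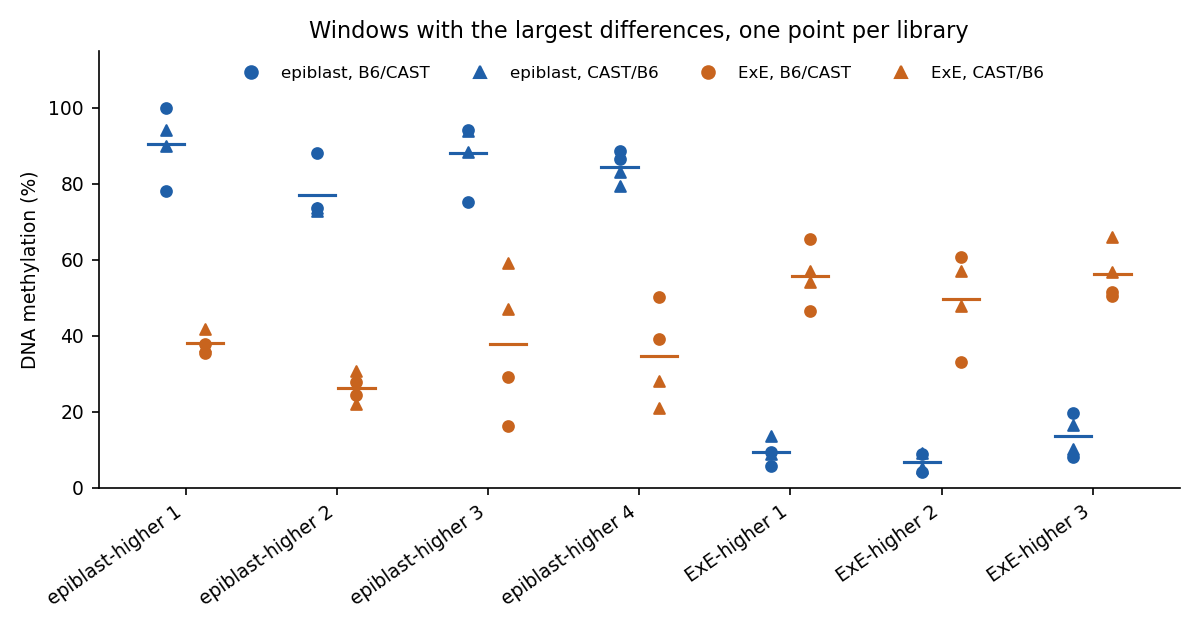
DNA methylation (%) in each of the 8 libraries at the windows described with the largest excess in the epiblast (4 windows) or in ExE (3 windows). Points are libraries, by tissue (colour) and cross (shape), and short lines are means of 4; the tissues do not overlap in any of these windows, which is a condition of their choice.

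Promoters were then followed through the shortest window that holds a start of each gene. Among 20660 protein-coding genes, 7896 promoter windows were higher in the epiblast (38.2%) and 610 higher in ExE (2.95%), and 51.2% were under 20% in both tissues. Promoter windows shorter than 2 kb, 11094 in number, were under 20% in both tissues in 90.2%. Of the 9566 longer ones, 76.8% were higher in the epiblast, with a median difference of 16.8 points. Gene lists below are read against these shares. A single library left out ended 12 of the 66 calls in the lists, and none in the germline list. On the logit scale, which stretches low percentages, 7.14% of promoter windows were higher in ExE.

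The labelled tissues were read at the promoters of a few lineage genes. Among 18 trophoblast regulators, 1 was called higher in the epiblast, 1 in ExE and 16 did not pass. Among 18 epiblast and pluripotency genes, 5 were higher in the epiblast and 6 in ExE. These promoters therefore do not settle the tissue labels. Elf5, a transcription factor that maintains trophoblast stem cells, was at 57.6%, 64.2%, 72.2% and 73.8% in the epiblasts and 39.1%, 25.1%, 48.3% and 28.4% in ExE, without overlap (difference 31.7 points, SE 4.78, limma adjusted p = 0.00041). Pou5f1, the pluripotency factor Oct4, was at 12.3%, 10.4%, 7.77% and 7.41% in the epiblasts and 26.1%, 25.5%, 27.8% and 28.0% in ExE (adjusted p = 0.00017). The Pou5f1 window holds the start of an annotated transcript but not the RefSeq promoter of the gene, which lies in the neighbouring window. Nanog, also a pluripotency factor, was at 42.9% ± 3.75 and 56.4% ± 4.58 (SD, n = 4 each). Averaged over all windows within 1 kb of their starts, the differences shrank to 20.5 points for Elf5, -5.10 for Pou5f1 and -4.81 for Nanog. Dppa5a, a gene of pluripotent cells, went against the direction of Pou5f1 and Nanog and was higher in the epiblast, at 75.6% ± 5.30 against 58.7% ± 1.45. The promoter of Afp, a visceral endoderm gene, was at 83.1% and 66.0%.

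Elf5, Tdgf1 and Sycp1 had the widest difference in the lists of trophoblast, pluripotency and germline genes described below. Their differences were 31.7, -30.4 and 36.8 points, against list medians of -0.362, -0.460 and 17.97, so they are not typical of their lists. RefSeq (GRCm38.p6) gives these 3 promoters as follows, from 250 bases before to 50 bases after the start, with CpGs in capitals. They hold 10, 7 and 21 CpGs. The 3′ end of the Elf5 sequence lies in the window described above, and the other 2 lie wholly in their gene's window.
Elf5, chr2:103423818-103424117, plus strand: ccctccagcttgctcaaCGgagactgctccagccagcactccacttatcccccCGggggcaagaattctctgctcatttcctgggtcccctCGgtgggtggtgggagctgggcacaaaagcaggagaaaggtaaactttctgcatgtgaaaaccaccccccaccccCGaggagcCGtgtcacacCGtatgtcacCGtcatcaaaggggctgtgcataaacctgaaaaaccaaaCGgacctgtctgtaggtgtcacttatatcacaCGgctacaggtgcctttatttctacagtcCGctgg
Tdgf1, chr9:110946109-110946408, minus strand: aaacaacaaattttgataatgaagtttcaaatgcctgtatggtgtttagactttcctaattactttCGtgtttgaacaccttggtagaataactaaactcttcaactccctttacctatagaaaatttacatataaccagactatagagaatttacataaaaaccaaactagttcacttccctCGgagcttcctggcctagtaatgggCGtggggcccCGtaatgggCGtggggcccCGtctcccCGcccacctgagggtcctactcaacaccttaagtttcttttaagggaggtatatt
Sycp1, chr3:102936051-102936350, minus strand: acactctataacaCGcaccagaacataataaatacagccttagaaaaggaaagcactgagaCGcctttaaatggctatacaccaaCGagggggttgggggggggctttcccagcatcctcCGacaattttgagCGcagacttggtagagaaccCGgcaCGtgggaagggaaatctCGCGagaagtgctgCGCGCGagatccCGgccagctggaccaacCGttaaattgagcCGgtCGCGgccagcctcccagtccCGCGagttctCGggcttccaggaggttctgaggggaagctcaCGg

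Among 18 regulators of trophoblast, Elf5 was higher in the epiblast and Esrrb in ExE, and the other 16 did not pass. Their median difference was -0.362 points, or 0.730 when averaged within 1 kb of starts, with 9 genes above 0 and 9 below, and 16 of 18 were under 20% in both tissues. On the logit scale 4 of 18 were higher in ExE, with Gata2, Gata3 and Ascl2 added. Cdx2 and Eomes, which specify trophoblast, were at 0.806% and 0.857% in the epiblast and 1.28% and 0.665% in ExE. Esrrb, a nuclear receptor of trophoblast stem cells, was at 1.88% ± 0.908 and 7.39% ± 1.66, with an adjusted p of 0.027 that rose to 0.0715 when a single library was left out. Averaged over all windows within 1 kb of its starts, Esrrb was higher in the epiblast by 6.80 points. Hand1, which directs giant cell formation, had the lowest difference of the list, -6.09 points, and did not pass.

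Genes of the epiblast and of pluripotency changed in both directions. Of 18, 5 were higher in the epiblast and 6 in ExE, and on the logit scale 5 and 7. Their median difference was -0.460 points, or 0.246 within 1 kb of starts. The calls of Dppa3 and Fgf4 were lost when a single library was left out (adjusted p up to 0.0944 and 0.0694). The largest difference was at Tdgf1, the Nodal co-receptor Cripto, with 12.6%, 16.7%, 34.1% and 32.6% in the epiblasts and 44.3%, 55.7%, 56.9% and 60.7% in ExE. The 2 B6/CAST epiblasts were below the 2 CAST/B6 epiblasts, and all 4 were below ExE (adjusted p = 0.00012). Foxd3, a forkhead factor of the epiblast, was at 3.21% ± 1.31 and 18.2% ± 4.10, and its difference of -14.98 points became -9.45 within 1 kb of its starts. Otx2, a homeobox factor of the anterior epiblast, was at 7.65% ± 4.48 and 17.96% ± 3.51. Dppa4 (87.3% ± 4.69 and 59.4% ± 7.28), Zscan10 (91.9% ± 4.02 and 65.03% ± 3.87) and Zfp42, also named Rex1 (52.2% ± 6.06 and 26.6% ± 7.19), which mark naive pluripotent cells, were higher in the epiblast. The difference at Zscan10 fell from 26.9 to 6.31 points when averaged within 1 kb of its starts. Sox2 was at 0.543% and 0.914% without a call.

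Most promoters of germline genes were more methylated in the epiblast. Of 16, 12 were higher in the epiblast and none in ExE, with a median difference of 17.97 points and medians of 72.2% and 47.8%. That is 1.64 points above the genome-wide shift. Sycp1, a protein of the synaptonemal complex of meiosis, was at 72.7%, 79.5%, 75.7% and 80.6% in the epiblasts and 47.5%, 42.9%, 35.2% and 35.6% in ExE (adjusted p = 8.2e-05). Tex19.1, which restrains retrotransposons in germ cells, was at 77.1% ± 3.33 and 41.0% ± 3.74. Dazl, an RNA-binding protein of germ cells, was high in both, at 89.5% ± 3.42 and 74.8% ± 5.44. Ddx4, the germ cell helicase Vasa, was at 54.4% ± 11.04 and 35.7% ± 5.49, and Brdt, a testis bromodomain protein, at 11.1% and 12.9% without a call.

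Promoters of developmental transcription factors that passed were all higher in ExE. Of 24, none was higher in the epiblast, 8 were higher in ExE and 16 did not pass. The median difference was -3.14 points, and 22 were under 20% in both tissues. Within 1 kb of starts the median was -8.12 points, and all 24 were below 0. On the logit scale 18 of the 24 were higher in ExE. Tbx5, a T-box factor of heart and forelimb, was at 4.62%, 3.799%, 21.8% and 11.4% in the epiblasts and 41.6%, 43.2%, 52.5% and 39.4% in ExE (adjusted p = 0.00013). Pax3, a paired-box factor of neural crest and muscle, was at 0.206%, 2.11%, 0% and 0% in the epiblasts and 20.4%, 16.5%, 18.3% and 20.8% in ExE. Nkx2-5 of the heart was at 8.06% ± 7.17 and 25.7% ± 2.20, and Otp of the hypothalamus at 3.13% ± 2.40 and 17.1% ± 2.75. Six2, a kidney progenitor factor, was at 0.863% and 0.843%, so that a low epiblast level was not always accompanied by a higher ExE level.

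Hox promoters, of genes that pattern the body axis, showed the same direction where they passed. Of 39, 26 were higher in ExE and none in the epiblast, with a median difference of -7.87 points, and on the logit scale 33 of 39. Hoxb2 was at 10.6%, 20.1%, 16.3% and 13.8% in the epiblasts and 36.4%, 35.3%, 58.7% and 39.2% in ExE. Hoxb3 was at 9.41% ± 3.26 and 34.3% ± 6.89, and Hoxd12 at 8.50% ± 4.54 and 28.0% ± 2.95. Hoxd13 had the highest difference of the list at 1.74 points, with 3.42% and 1.68%.

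Genes for DNA methylation enzymes and housekeeping genes were mostly low in both tissues. Of 9 enzymes, only Dnmt1 passed, at 10.1% ± 4.57 and 4.26% ± 2.20 (adjusted p = 0.046, up to 0.126 with a library left out). Dnmt3b was at 0.381% and 0.929%, and Dnmt3l, a cofactor of the de novo enzymes, at 37.0% ± 3.48 and 30.5% ± 3.68 with an adjusted p of 0.053. None of the 8 autosomal housekeeping genes passed, with Actb at 0.896% and 0.834%, Gapdh at 1.24% and 1.85%, and the widest difference, 3.79 points, at Tbp. On the logit scale Tbp passed, higher in the epiblast. Within 1 kb of starts the median difference was 7.52 points for the housekeeping list and 5.23 for the enzymes. Of 10 visceral endoderm genes, 6 were higher in the epiblast and none in ExE, with a median difference of 9.91 points, 16.5 within 1 kb of starts, and -6.42 once library means were subtracted. Apoa4 differed most, at 72.7% and 49.2%, and Foxa1 least, at 1.72% and 2.34%.

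**Figure D5:**
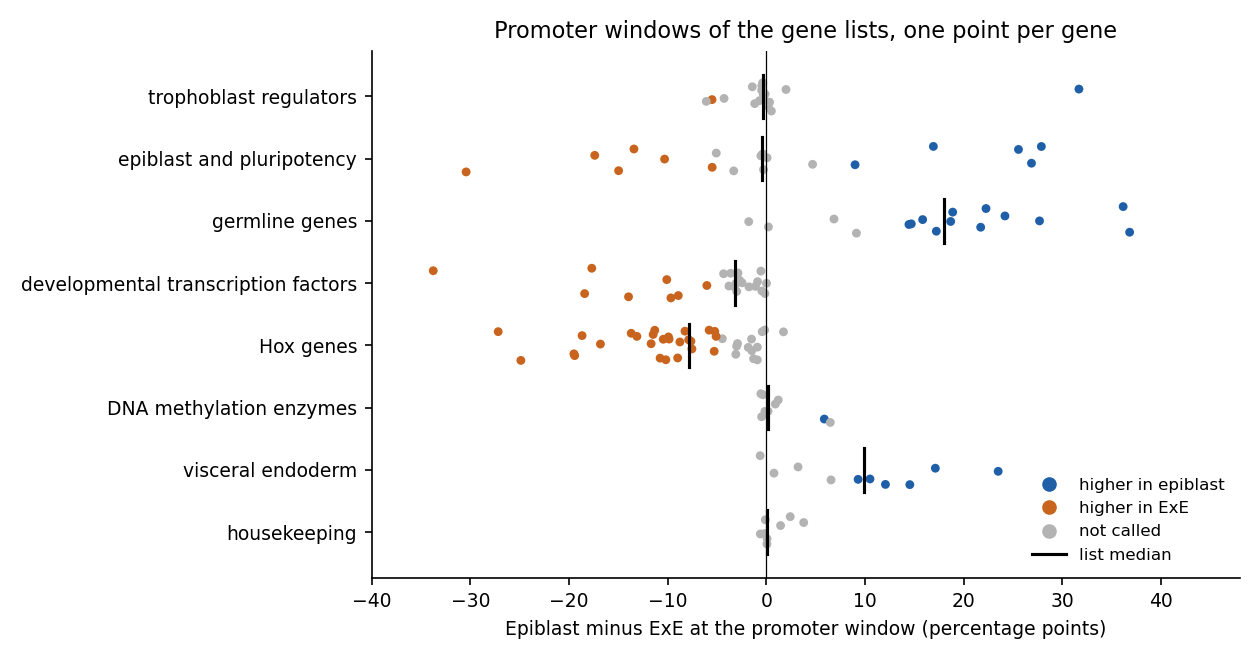
Epiblast minus ExE in percentage points at the promoter window of each gene, by list, coloured by the limma call, with the list median as a black line. Germline genes lie mostly to the right (median 17.97 points) and Hox genes to the left (median -7.87), while housekeeping genes stay near 0.

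At E6.5, in the pooled embryos, 58 of the 66 promoters of these lists that were called at E7.5 had a value in all libraries, and 55 of them differed in the same direction. The other 3 were Esrrb (27.5% and 18.3% in epiblast and ExE), Ddx4 (32.2% and 43.7%) and the homeobox gene Hoxc12 (6.17% and 5.81%). Elf5 was at 63.3% in the epiblast and 21.1% in ExE, and Sycp1 at 77.8% and 41.9%. Pou5f1 was at 3.81% and 39.1%, Nanog at 45.8% and 70.7%, Otx2 at 3.93% and 20.9%, and Tbx5 at 15.3% and 53.3%.

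Taken whole, the Hox clusters were higher in ExE on average, and the clusters of each other family read were higher in the epiblast. The 242 windows in the 4 Hox clusters averaged 9.48% ± 0.695 in the epiblast and 19.3% ± 0.420 in ExE (SD, n = 4 each), and 179 of them (74.0%) were called higher in ExE, against 1.30% of all windows. Windows called higher in ExE made up 8.57% of the shortest length decile, where the median Hox window of 1619 bp falls. They made up 14.4% of windows under 20% in the epiblast. The differences were -8.98 points for Hoxb, -10.8 for Hoxc, -10.2 for Hoxd and -9.69 for Hoxa. The 2 clusters of the prolactin family, hormones of the placenta and pituitary, were at 77.4% ± 2.52 and 51.7% ± 3.42 over 124 windows. The cluster of placental cathepsins, proteases of the placenta, was at 76.1% ± 2.45 and 51.8% ± 4.03 over 54 windows, all called higher in the epiblast, as were 82.9% of all windows and 97.5% of those in the ninth length decile, where the cluster's median length of 9886 bp falls. The cluster of pregnancy-specific glycoproteins, secreted by the placenta, was at 76.7% ± 1.77 and 60.6% ± 2.22, a difference of 16.2 points, close to the genome mean.

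Olfactory receptor clusters, 3207 windows, were at 75.8% ± 2.13 and 52.8% ± 2.34. The median window was 9147 bp long there and 12030 bp in the prolactin clusters. Differences in the olfactory receptor (23.0 points), prolactin (25.7) and cathepsin (24.3) clusters lay between those of the eighth (20.4) and the longest (28.8) decile of all windows by length. The clustered protocadherins, neuronal adhesion proteins, were at 45.2% ± 1.25 and 32.7% ± 2.02 over 206 windows, of which 150 (72.8%) were higher in the epiblast and 20 (9.71%) in ExE, against 82.9% and 1.30% of all windows.

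The sites that the study itself singled out were read last. They were chosen on other marks of these tissues, and so are no independent evidence. Among long terminal repeats (LTRs) of ERVK endogenous retroviruses that the study listed as active, all 8 with imprinted activity lay in windows higher in the epiblast (median 80.9% and 55.9%), by 23.4 to 30.7 points, where 82.9% of all windows were higher in the epiblast. At RLTR15 in Gab1 the window chr8:80858628-80861333 was at 93.3%, 88.1%, 88.9% and 76.7% in the epiblasts and 50.9%, 55.6%, 48.3% and 69.2% in ExE. At RLTR11B near Sfmbt2 it was at 67.9% ± 6.28 and 37.3% ± 4.10. Of 32 listed LTRs without imprinted activity, 31 had a window measured in all 8 libraries. Among these, 25 (80.6%) were in windows higher in the epiblast and 6 did not pass, a share near that of all windows. The median difference was 17.9 points, against 16.5 over all windows, and the largest, 43.1, at an RLTR27 at chr11:98067376-98067680 (78.8% and 35.7%). The windows are longer than the LTRs, and of the 39 LTRs 27 lay wholly and 12 partly in the window read, the RLTR27 among the latter, so the values are those of windows and not of the LTRs alone.

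Germline differentially methylated regions (gDMRs) carry methylation from 1 parent. The study listed H3K4me3 peaks that overlap a gDMR, and the shortest window in each of 17 such peaks was read, which need not be the gDMR itself. The median was 42.0% in the epiblast and 40.9% in ExE. The difference ran from -13.4 to 23.9 points with a median of 4.33. By mean, 14 of 17 were higher in the epiblast, against 94.8% of all windows. Of the 17, 16 did not pass. In the shortest decile, to which 16 of the 17 windows belong, 67.3% of all windows were not called. The window that passed lay in the peak at H19, chr7:142576656-142578204, and holds the start of the H19 gene itself. It was at 55.0%, 57.8%, 68.0% and 81.2% in the epiblasts and 42.3%, 38.2%, 44.3% and 41.4% in ExE (limma adjusted p = 0.00071). The lowest difference was at Sgce, where ExE values ranged from 27.3 to 65.4%.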

How the data were processed

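PBAT libraries of 8 single-embryo E7.5 tissues were analysed. According to the study's methods, reads were trimmed with Trim Galore and aligned with Bismark to GRCm38 with strain variants masked. The deposited values, made by the authors, are the percent methylation of CpG calls in windows of 100 CpGs, with no coverage column, so the depth behind each window's value is unknown. Percentages were not rescaled. Windows were fitted in limma 3.58.1 (R 4.3.3; tissue plus cross, Benjamini-Hochberg adjustment), and single values by exact permutation tests over libraries (scipy 1.17.1). On simulated data with 200 windows changed by 30 points, 177 were recovered with 4 false calls among 383556 windows tested. The simulation had normal noise, no tissue shift in the other windows and changes at middle levels only, unlike the data. It therefore gives no error rate for the calls above. Starts, genes and exons came from GENCODE vM21. Named windows were the 5 with the largest difference in each direction, without overlap of libraries and in both crosses, windows within 50 kb counted once; 3 of them are not reported here. Within lists, the highest and lowest members and standard examples were named. Hprt and Pgk1 are X-linked and were not used. The members and lists were chosen with earlier results of these data known. The study's sample list numbers the tissues alike and gives same-numbered tissues the same sex, but no source used here states that they came from 1 embryo. E6.5 and allele values were used at the same places only. Alternatives covered scale, variance model, centring, averaging, missing values, blocks and libraries left out.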

Additional observations from a re-analysis of the deposited data

Results flagged for a closer look

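A sample far from the other 3 of its group was found in 8 of 114 groups examined, where chance flags about 1 in 20. In the epiblast, the Nanog promoter was at 37.4% in 1 library with the nearest other at 44.4%, Dppa4 at 80.3% with the nearest at 88.6%, Pax3 at 2.11% with the nearest at 0.206%, and Nkx2-5 at 18.8% with the nearest at 5.19%. The epiblast-higher window in Skint5 was at 88.1% in 1 epiblast with the nearest at 73.7%. In ExE, Otp was at 13.01% with the nearest at 17.9%, Hoxb2 at 58.7% with the nearest at 39.2%, and the Sgce window at 65.4% with the nearest at 30.7%. Apart from the Sgce window, which was not called, each of these differences kept an adjusted p below the threshold of 0.05 (limma) without any single library. The causes were not tested.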

How the results depend on the processing

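With each library mean subtracted, 152721 windows were called in all, of which 79853 were lower in the epiblast than the shift. A minimum of 20 points left 139679 calls, 674 of them higher in ExE. Every second window gave 161506 calls and 2535 higher in ExE, from 191783 tested. Leaving out a library gave 303752 to 317910 calls, and 4235 to 4660 higher in ExE. The logit scale, trended and robust variance, no cross term, at least 3 of 4 libraries, all chromosomes and the replicate block (322964 calls) stayed within 1.5 times. No setting but the trended, robust variance (1) called an interaction, and leaving out a library gave 0 each time. The promoter contrast reversed to 1.59 with medians, and Esrrb to 6.80 when all windows within 1 kb of a start were averaged; the cause was not tested. That averaging moved 76 other results at listed genes by more than the replicate spread, among them Pou5f1 from -17.4 to -5.10, Nanog from -13.4 to -4.81 and Zscan10 from 26.9 to 6.31. List medians became 20.003 for germline, -9.45 for Hox, -8.12 for developmental factors, 7.52 for housekeeping, 16.5 for visceral endoderm, 5.23 for enzymes, 0.730 for trophoblast and 0.246 for pluripotency genes. The last 2 changed sign. Without a single library, calls were lost for Esrrb, Fgf4, Dppa3, Pax7, Olig2, Hoxa11, Hoxb5, Hoxb6, Hoxd10, Dnmt1, Ttr and Cubn.

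With the replicate block, a sign-flip over 4 pairs, the values were the same, 16.3, -5.20, -15.3 and -5.37 points for the mean, promoter, CpG density and gene body, but 4 pairs cannot give a p below 0.125. Without 1 library the smallest possible p is 0.0571, and values ranged from 15.8 to 17.1, -5.42 to -4.99, -15.9 to -14.7 and -5.69 to -5.02. Deviations of same-numbered tissues correlated at 0.0345 to 0.0934, so the numbers were not taken as pairs, and ExE B6/CAST 2 correlated best with another number. A coverage minimum could not be tried without coverage. On the logit scale 22 further results at named or listed places passed.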
